A study of Homo sapiens with 12 samples.

Results

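The METTL3-METTL14 writer complex places most N6-methyladenosine (m6A) on messenger RNA, and it was followed here through the m6A windows on the messenger RNAs of its own subunits. Members were chosen by gene name alone. A row of the authors' deposited tables counted when it was named METTL3, METTL14, WTAP, RBM15, RBM15B, ZC3H13, CBLL1 or KIAA1429, the older symbol of VIRMA. The rule found 215 windows on 8 genes, of 296568 windows in all 4 tables. There were 61 and 50 windows in the replicate 1 and replicate 2 tables of guide sgMETTL16-1, and 59 and 45 in those of sgMETTL16-2, and each table listed all 8 genes.

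The cells were NOMO-1, a human acute myeloid leukaemia line, carrying guide sgMETTL16-1 or sgMETTL16-2, both labelled METTL16 knockout, or the control guide sgNS. Every guide came by lentivirus with puromycin selection, the only treatment, and the labels do not say whether the cells were clones or mixed populations. From polyadenylated RNA, input libraries and libraries of the RNA pulled down by an m6A antibody (IP) were made, with 2 libraries of each kind for each of 3 guides, 12 in all. The series asks what METTL16 methylates. Each deposited table sets 1 knockout guide against sgNS for 1 replicate number and lists, for every window, how far IP exceeded input (the fold enrichment) and how that differed between knockout and sgNS (a log2 fold change).

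No value per library was used, so depth is unknown, and no fold change has a replicate error of its own. Nothing in the labels says that the replicates were separate cultures, and nor is it stated which control libraries each table used, so tables may share them. It is also not stated whether the fold enrichment comes from the knockout libraries, the sgNS libraries or both. A ratio given for a guide is therefore that of its table, and not one known to be measured in that knockout. Negative values are taken to mean less m6A in the knockout, relative to input. The tables do not state this convention, and with the opposite convention every direction would turn. Of the myelomonocytic markers 9 of 9 had a window in all 4 tables, against 0 of 2 erythroid and 0 of 2 epithelial markers.

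METTL3 is the catalytic subunit, and METTL14 pairs with it and helps to hold the RNA. WTAP joins the pair to a larger assembly in which VIRMA is the scaffold, ZC3H13 keeps the complex in the nucleus and CBLL1 (HAKAI) is a ubiquitin ligase. RBM15 and RBM15B bind RNA and bring the complex to its sites. METTL16 is a separate methyltransferase, known for U6 small nuclear RNA and for MAT2A messenger RNA, and is not a subunit of this complex. METTL3 and METTL14 are known to be needed for the growth of acute myeloid leukaemia cells. The windows describe m6A on these transcripts and not the amount or activity of the proteins.

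A window at the start of CBLL1 had the highest fold enrichment of all members. It is shown, with the start of METTL3, because the ratios there were high in 2 tables each without evidence of enrichment. The sequences are those stretches of the windows before the annotated gene start that the RefSeq promoter table holds (GRCh38.p14, 5′ to 3′ on the gene's strand), chr7:107743892-107744141 (plus) and chr14:21511341-21511375 (minus). The CBLL1 window begins further upstream, outside the promoter table, and the sgMETTL16-1 window ends before the printed stretch does. Capitals mark GGACT, the commonest m6A core.
CBLL1: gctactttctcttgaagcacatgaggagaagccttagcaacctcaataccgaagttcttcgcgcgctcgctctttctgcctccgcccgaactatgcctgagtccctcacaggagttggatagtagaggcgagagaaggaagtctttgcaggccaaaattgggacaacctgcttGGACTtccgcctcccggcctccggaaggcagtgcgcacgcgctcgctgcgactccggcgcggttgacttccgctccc
METTL3: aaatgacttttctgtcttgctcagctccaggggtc

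The CBLL1 stretch held GGACT once on the gene's strand, and its reverse complement AGTCC once, while the METTL3 stretch held neither. Of 35116 RefSeq promoters, 21.1% held GGACT on the gene's strand in the 250 bases before the start, and 37.7% held it on either strand. In the authors' deposited tables of replicate 1, the CBLL1 window had a fold enrichment of 5.94 with sgMETTL16-1 (chr7:107743877-107744086) and 6.08 with sgMETTL16-2 (chr7:107743847-107744146). The FDR of IP over input was 1 for each in the authors' deposited tables. In the replicate 2 tables the ratio at this start was 1.69 with sgMETTL16-1 and 1.65 with sgMETTL16-2, and a window near the 3′ end of CBLL1 also reached 5.94 in replicate 1 of sgMETTL16-1, per the authors' deposited tables. CBLL1-AS1, a long non-coding RNA gene, overlaps this start in the annotation. The METTL3 window reached 3.38 (chr14:21511167-21511375, FDR = 0.834) and 3.31 (chr14:21511137-21511375, FDR = 1) in the authors' deposited replicate 2 tables of sgMETTL16-1 and sgMETTL16-2, and 1.21 in replicate 1 of sgMETTL16-1. Of the 17 member windows with a fold enrichment above 3, 15 were not enriched and 2 were, both on WTAP.

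Every member had an enriched window in at least 3 tables, and in the sgMETTL16-2 tables the highest ratio among them was near the 3′ end of WTAP. A window was enriched when the authors' FDR of IP over input was under 0.05. In the authors' deposited tables of sgMETTL16-1, 16 of 61 member windows (26.2%) were enriched in replicate 1 and 15 of 50 (30.0%) in replicate 2, against 8.1% and 11.9% of all windows. In those of sgMETTL16-2 the authors' deposited values gave 20 of 59 (33.9%) and 16 of 45 (35.6%), against 10.2% and 12.3% of all windows. Member windows were also longer, with medians of 151 to 181 bases against 121 bases over all windows, and the part of length and of RNA abundance in these shares was not tested.

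Over the 4 tables ZC3H13 had the most enriched windows, 17 of 37, followed by RBM15 with 12 of 23 and RBM15B with 11 of 35. VIRMA had 8 of 34, WTAP 7 of 17, CBLL1 5 of 26, METTL3 4 of 18 and METTL14 3 of 25. Windows are cut separately in each table, so these counts follow the splitting of a signal as well as its spread. The median fold enrichment of enriched member windows lay between 1.86 and 1.96 in the authors' deposited tables, against 1.78 to 1.92 for all enriched windows.

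**Figure D1:**
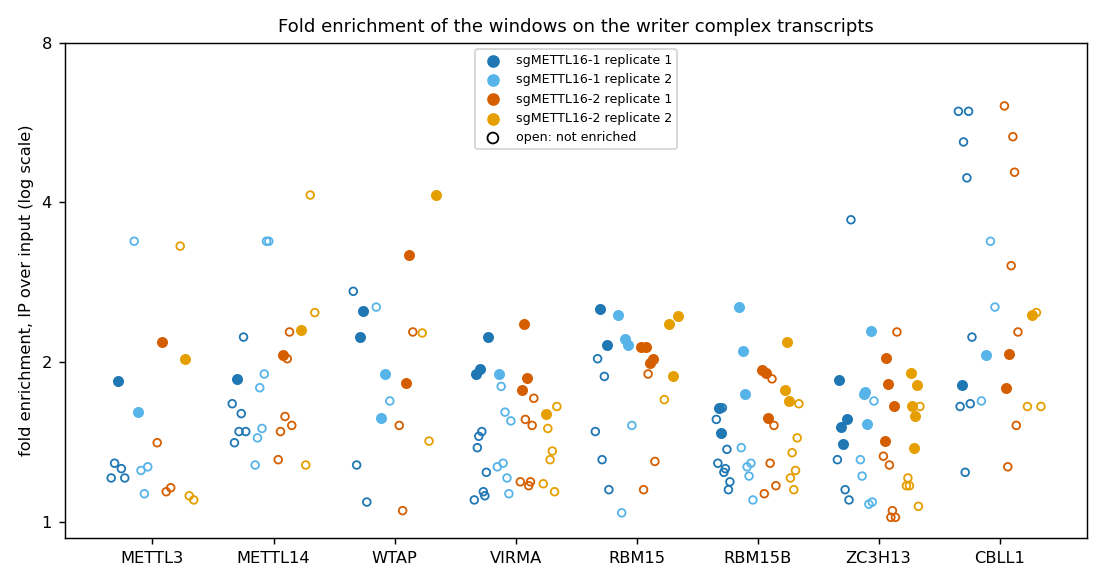
Fold enrichment of IP over input (vertical axis, log scale) for each of the 215 windows, by gene and coloured by table, as the authors deposited it. Filled points are enriched and open points are not. The highest points, on CBLL1 at 5.94 and 6.08, are open, while the filled WTAP points reach 4.13.

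The difference between knockout and sgNS was called on 8 of the 215 windows, 2 lower and 6 higher in the knockout. All 8 lay on RBM15B and ZC3H13, and the other 6 genes, METTL3 and METTL14 among them, had no called window. RBM15B was higher in 3 tables and lower in none, whereas ZC3H13 was lower in the replicate 1 tables and higher in the replicate 2 tables. Calling required an FDR under 0.05 for the difference, as the authors deposited it for the whole table. In either direction 1 of 61 and 3 of 50 member windows were called with sgMETTL16-1, against 0.355% and 0.749% of all windows, per the authors' deposited tables. With sgMETTL16-2 it was 2 of 59 and 2 of 45, against 1.84% and 0.734% in the authors' deposited tables.

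By direction, 1 of 61 member windows was called lower and 0 higher in the authors' deposited table of replicate 1 of sgMETTL16-1, against 0.281% and 0.0743% of all windows. In replicate 2 of that guide 0 were lower and 3 of 50 higher, against 0.167% and 0.583% of all windows in the authors' deposited table. With sgMETTL16-2, replicate 1 had 1 lower and 1 higher of 59, against 0.965% and 0.875% in the authors' deposited table, and replicate 2 had 0 lower and 2 higher of 45, against 0.149% and 0.586%. At an unadjusted p under 0.05, the authors' deposited tables of sgMETTL16-1 had 7 members lower and 0 higher in replicate 1, and 2 lower and 6 higher in replicate 2. For sgMETTL16-2 the same counts in the authors' deposited tables were 6 and 4, then 4 and 7. In either direction these were 7 of 61 and 8 of 50, then 10 of 59 and 11 of 45 members, against 4.85% and 5.81%, then 8.20% and 6.15% of all windows in the authors' deposited tables.

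All 8 called windows were enriched and between 360 and 1945 bases long, and none of the 152 member windows shorter than 300 bases was called. Of all windows that short, 0.179% and 0.31% were called with sgMETTL16-1 and 0.781% and 0.301% with sgMETTL16-2, per the authors' deposited tables. Among enriched windows alone the shares called in the whole tables were larger. They were 2.79% lower and 0.809% higher, then 0.766% and 4.64%, for sgMETTL16-1, and 4.38% lower and 7.38% higher, then 0.676% and 4.54%, for sgMETTL16-2. The members' counts follow the direction that each table shows as a whole, with lower calls in replicate 1 of sgMETTL16-1 and higher calls in replicate 2.

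**Figure D2:**
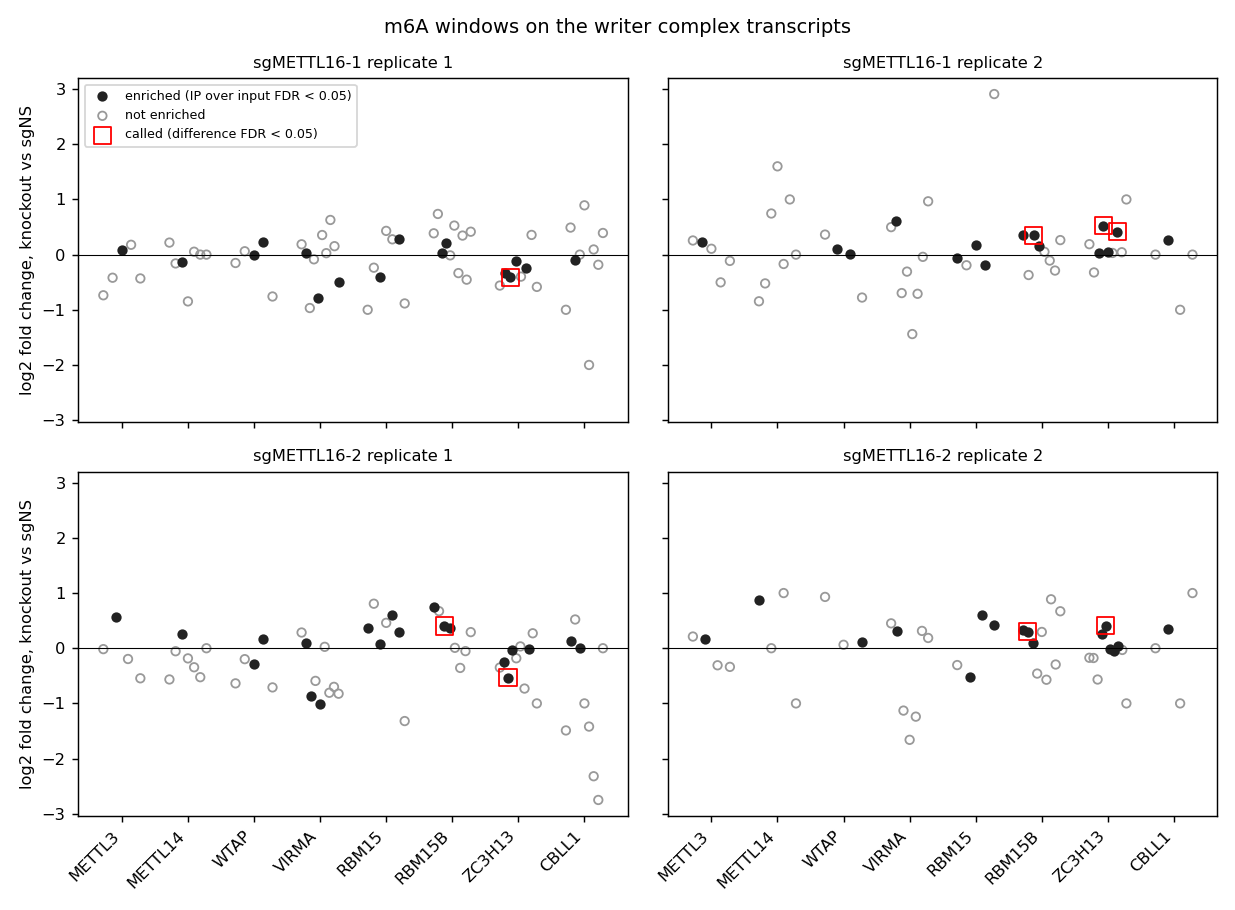
Log2 fold change between knockout and sgNS (vertical axis) of each window, by gene from left to right, in 4 panels for the authors' 4 deposited tables. Within a gene, windows run from the 5′ end to the 3′ end. Filled points are enriched and red squares mark the 8 called windows, which lie on RBM15B and ZC3H13 alone.

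The median log2 fold change of all member windows was -0.01 and 0.03 in the authors' deposited tables of sgMETTL16-1 and -0.05 and 0.06 in those of sgMETTL16-2, against 0 over all windows in each table. Over enriched members alone it was -0.10 and 0.18 with sgMETTL16-1, against -0.04 and 0.134 for all enriched windows in the authors' deposited tables. With sgMETTL16-2 it was 0.11 and 0.28, against 0.125 and 0.135, per the authors' deposited tables. Enriched windows were therefore shifted upward in 3 of 4 tables, members and others alike, and a higher call on a member is read against that shift. Whether choosing windows by their enrichment itself moves this median was not tested.

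RBM15B binds RNA for the complex and, with RBM15, is known for a part in X inactivation. A long window in the 5′ part of its transcript was higher with both guides. In the authors' deposited tables of sgMETTL16-1, its log2 fold change was 0.03 in replicate 1 (chr3:51392225-51393779, FDR = 0.655) and 0.35 in replicate 2 (chr3:51391956-51393660, FDR = 0.000224). In those of sgMETTL16-2 it was 0.40 in replicate 1 (chr3:51391986-51393779, FDR = 1.38e-05) and 0.30 in replicate 2 (chr3:51391776-51393720, FDR = 0.00186), as the authors' deposited tables give it. Thus 3 of the 4 values lay close together, and the replicate 1 value of sgMETTL16-1 lay near 0.

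A standard error that covers counting alone was worked out from each deposited p by a normal approximation. For the RBM15B window it was 0.07 to 0.08, which gives approximate 95% intervals of -0.13 to 0.19, 0.21 to 0.50, 0.26 to 0.55 and 0.17 to 0.44 in the order above. The interval of replicate 1 of sgMETTL16-1 lies below that of replicate 2 of the same guide, and neither holds the spread between samples. The fold enrichment of IP over input was 1.64 and 2.10 with sgMETTL16-1 and 1.91 and 2.18 with sgMETTL16-2, per the authors' deposited tables, with the lowest value where no difference was called.

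RBM15B lies on the plus strand of chromosome 3 (51391285 to 51397908 in GRCh38), so this window starts 491 to 940 bases after the annotated 5′ end and stops 4129 to 4248 bases before the 3′ end. It is 1 unbroken block in every table. DCAF1, which overlaps the 3′ part of the gene in the annotation, does not reach it. Windows this long were often called. The lower calls of that length were 4.02% and 0.365% of enriched windows with sgMETTL16-1, and 4.25% and 0.167% with sgMETTL16-2, as the authors' deposited tables list them. Among enriched windows of 1000 bases or more, the authors' deposited tables called 15% higher in replicate 2 of sgMETTL16-1, 32% in replicate 1 of sgMETTL16-2 and 16.1% in its replicate 2, against 1.44% in replicate 1 of sgMETTL16-1. After subtracting the median of the enriched windows from each table and recomputing a two-sided FDR, the RBM15B window stayed called in replicate 1 of sgMETTL16-2 at 0.28 (FDR = 0.0209). It was no longer called in replicate 2, at 0.22 (FDR = 0.36) with sgMETTL16-1 and 0.17 (FDR = 0.899) with sgMETTL16-2.

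The other enriched windows of RBM15B were not called, and their values were all above 0. At the 5′ end the enriched window was at 0.36 in replicate 2 of sgMETTL16-1, and the authors' deposited tables of sgMETTL16-2 list 0.75 and 0.33. Just downstream of the long window, the values were 0.21 and 0.15 with sgMETTL16-1 and 0.36 and 0.09 with sgMETTL16-2, per the authors' deposited tables. From about 3 kilobases after the 5′ end no window of RBM15B was enriched, and values fell on both sides of 0.

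**Figure D3:**
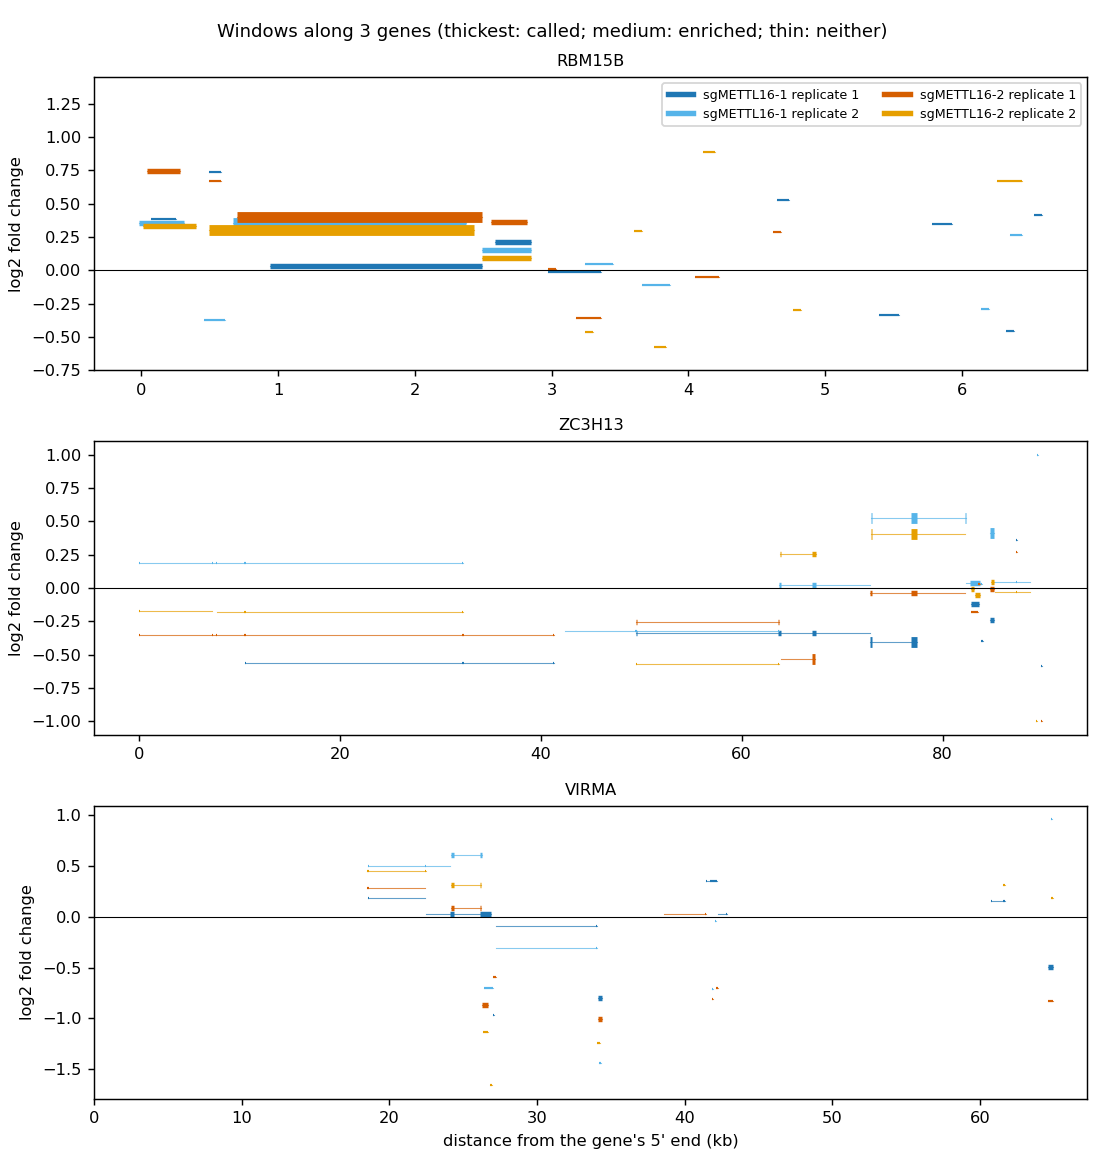
Windows of RBM15B, ZC3H13 and VIRMA drawn along the gene, with distance from the gene's 5′ end in kilobases on the horizontal axis and the authors' log2 fold change on the vertical axis. Colours are the 4 tables, thick bars are called, medium bars are enriched, and thin lines join the blocks of 1 window. The called bars of RBM15B lie between 0.30 and 0.40, while those of ZC3H13 lie on both sides of 0.

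ZC3H13, a zinc finger protein that keeps the complex in the nucleus, had calls in all 4 tables but in opposite directions. The lowest FDRs were in a window of 660 to 690 bases nearer the 3′ end of the gene, which lies on the minus strand of chromosome 13 (45954465 to 46052746). With sgMETTL16-1 the authors' deposited tables gave -0.41 in replicate 1 (chr13:45975307-45979940, FDR = 2.95e-06) and 0.52 in replicate 2 (chr13:45970430-45979910, FDR = 6.31e-14). With sgMETTL16-2 they gave -0.04 in replicate 1 (chr13:45970460-45979940, FDR = 0.659) and 0.41 in replicate 2 (chr13:45970460-45979910, FDR = 7.76e-08), as the authors' deposited tables list them.

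The 2 replicates of sgMETTL16-1 were thus called in opposite directions on overlapping bases. The approximate 95% counting intervals ran from -0.55 to -0.27 and from 0.40 to 0.65, and did not overlap. They hold no spread between samples. For sgMETTL16-2 they ran from -0.18 to 0.10 and from 0.28 to 0.53. The window was enriched in each table, with a fold enrichment of 1.51 and 1.76 for sgMETTL16-1 and 1.82 and 1.65 for sgMETTL16-2, per the authors' deposited tables. Among enriched windows of at least 300 but under 1000 bases, 2.55% and 0.201% were lower, and 0.364% and 4.88% higher, with sgMETTL16-1 in the authors' deposited tables. With sgMETTL16-2, 4.7% and 0.381% were lower, and 7.14% and 4.2% higher, per the authors' deposited tables. All 3 calls remained after the shift by the enriched median.

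Further upstream, ZC3H13 was called lower in replicate 1 of sgMETTL16-2 at -0.53 (chr13:45985442-45988826, FDR = 0.0182) in the authors' deposited table. The overlapping windows were at 0.25 (FDR = 0.451) in replicate 2 of that guide, and at -0.34 (FDR = 0.104) and 0.02 (FDR = 0.658) with sgMETTL16-1, in the authors' deposited tables. The window at -0.34 was 959 bases long and shared 360 of them with the called window. This is under 0.5 of its length, so the matching rule would not count them as the same window. Downstream, a window was called higher in replicate 2 of sgMETTL16-1 at 0.42 (chr13:45967614-45967973, FDR = 0.0191), with -0.24 in replicate 1 and -0.01 and 0.04 for sgMETTL16-2 in the authors' deposited tables. This last call was lost when the FDR was recomputed two-sided (FDR = 0.0523). The window of highest ratio in replicate 1 of sgMETTL16-2, 2.28 at chr13:45962838-45962928, was not enriched and was at -1 in the authors' deposited table. In each of the 3 regions with a call the replicate 1 value lay below the replicate 2 value of the same guide.

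Matched one by one, 18 member windows occurred in both tables of sgMETTL16-1 and 22 in both tables of sgMETTL16-2. With sgMETTL16-1, 0 were called in the same direction and 1, on ZC3H13, in opposite directions, against 0.0649% and 0.0998% of all matched windows. With sgMETTL16-2, 1, on RBM15B, was called in the same direction and 0 in opposite directions, against 0.59% and 0.0142%. After the shift by the enriched median, that count in the same direction was 0. Windows of equal name and strand counted as the same when their overlap covered 0.5 or more of both.

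**Figure D4:**
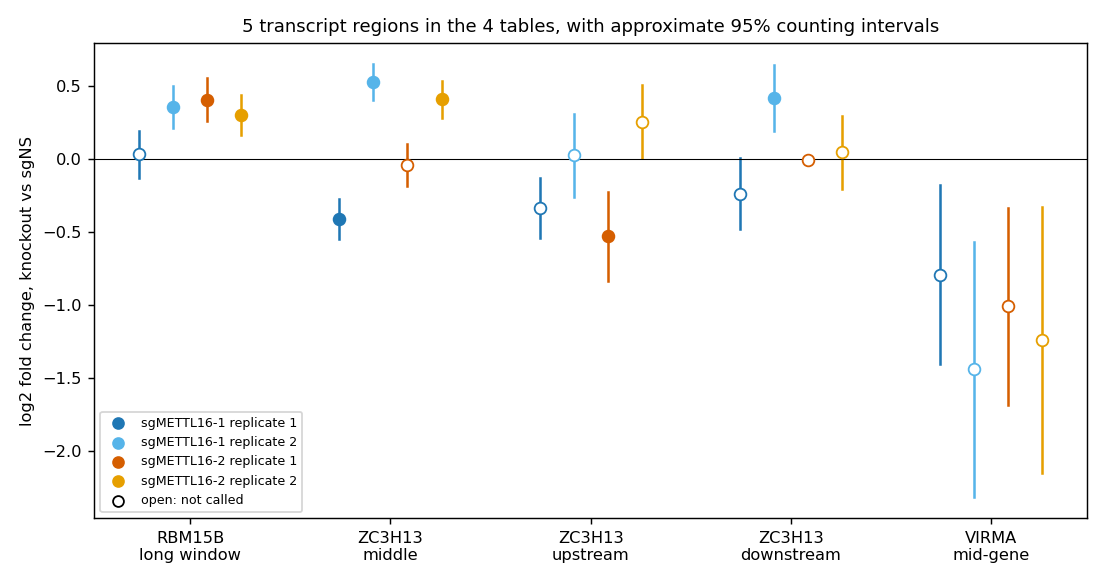
Log2 fold change with an approximate 95% counting interval (vertical axis) for 5 transcript regions, each in the authors' 4 deposited tables. Filled points are called and open points are not, and the point with no bar has a p too near its limit to give an interval. RBM15B is near 0 in 1 table and between 0.30 and 0.40 in 3, and ZC3H13 changes sign between replicates. The overlapping windows of VIRMA lie below 0 in all 4 without a call.

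VIRMA, the scaffold that is known to steer methylation toward the 3′ end of messenger RNAs, had no called window. Its -1.01 in replicate 1 of sgMETTL16-2 was the log2 fold change largest in size of any enriched member window. The window singled out here was chosen after its values were seen. It lies in the middle of the gene on the minus strand of chromosome 8, about 34 kilobases from the 5′ end. The overlapping windows of this region were below 0 in every table. That of replicate 2 of sgMETTL16-2 (chr8:94519202-94519412, 211 bases) shared 91 bases with that of replicate 2 of sgMETTL16-1. This is under 0.5 of its length, so the matching rule would not count them as the same window. The authors' deposited tables of sgMETTL16-1 gave -0.79 in replicate 1 (FDR = 0.345) and -1.44 in replicate 2 (FDR = 0.0562). Those of sgMETTL16-2 gave -1.01 (FDR = 0.0603) and -1.24 (FDR = 0.183) in the authors' deposited values.

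The standard errors from counting were 0.31 to 0.46, several times those of RBM15B, and the 4 approximate intervals lay below 0 with upper ends between -0.57 and -0.18. These intervals are not adjusted for the number of windows, whereas the FDR is. The window was enriched in both replicate 1 tables but in neither replicate 2 table, where the FDR of IP over input was 0.0692 and 0.542 in the authors' deposited tables. The overlapping windows were 180 to 270 bases long.

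Other parts of VIRMA had values on both sides of 0. About 26 kilobases from the 5′ end, the authors' deposited tables gave -0.87 (FDR = 0.121) and -1.13 (FDR = 0.129) for sgMETTL16-2. With sgMETTL16-1, replicate 2 had -0.70 (FDR = 0.455) there, and replicate 1 had 0.0294 in a longer window over it and -0.97 in the window beside it, per the authors' deposited tables. An enriched window next to it on the 5′ side, about 24 kilobases from the 5′ end, was at 0.61 (FDR = 0.177) in replicate 2 of sgMETTL16-1, while sgMETTL16-2 had 0.09 and 0.32, per the authors' deposited tables. Near the 3′ end, the authors' deposited tables gave -0.49 (FDR = 0.655) and 0.97 (FDR = 0.621) for sgMETTL16-1, and -0.82 (FDR = 0.0832) and 0.19 (FDR = 0.65) for sgMETTL16-2.

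METTL3, the catalytic subunit, had 1 enriched window in each table and no call. It lies in the middle of the gene on the minus strand of chromosome 14, and its log2 fold changes were 0.08 and 0.22 for sgMETTL16-1 but 0.57 and 0.17 for sgMETTL16-2, per the authors' deposited tables. The lowest FDR of the difference was 0.494, in replicate 1 of sgMETTL16-2 (chr14:21503334-21503482), as the authors' deposited table gives it. Its standard error from counting was 0.37, and its approximate interval includes 0.

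METTL14, the RNA-binding partner of METTL3, had its signal in a window about 25 kilobases from the 5′ end on chromosome 4. The authors' deposited tables gave -0.13 and 0.75 with the first guide, sgMETTL16-1, and 0.26 and 0.88 with sgMETTL16-2. The highest value, in replicate 2 of sgMETTL16-2 (chr4:118710114-118710354), had FDR = 0.279, per the authors' deposited table. The window of replicate 2 of sgMETTL16-1 just missed the enrichment threshold. The replicate 2 values were above the replicate 1 values for each guide, and none was called. Its highest ratio in replicate 1 of sgMETTL16-2, 2.28 at chr4:118711132-118711402, was not enriched and had a log2 fold change of -0.53 in the authors' deposited table.

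WTAP, the adaptor of the complex, had the highest ratios of all enriched members in the sgMETTL16-2 tables, within 447 to 626 bases of its 3′ end on chromosome 6. In the authors' deposited tables of sgMETTL16-1 against sgNS the fold enrichment was 2.50 in replicate 1 and 1.90 in replicate 2. Those of sgMETTL16-2 against sgNS gave 3.19 and 4.13. The log2 fold changes of the difference were 0.22 and 0.01 with sgMETTL16-1 and 0.17 and 0.12 with sgMETTL16-2, per the authors' deposited tables, and the lowest FDR was 0.65. Where a standard error could be had it was 0.17 to 0.18, and no interval left out 0. The whole span of SOD2 overlaps all 17 WTAP windows in the annotation. Exons were not used, so whether SOD2 reads enter these windows was not tested.

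RBM15, the other RNA-binding member of its pair, had several enriched windows in the first 3 kilobases of the transcript on chromosome 1. The value nearest a call was 0.60 in replicate 2 of sgMETTL16-2 (chr1:110340788-110341835, FDR = 0.0933) in the authors' deposited table. The overlapping window of replicate 2 of sgMETTL16-1 was at 0.18 (FDR = 0.658), and that of replicate 1 of that guide, which was not enriched, at 0.28 (FDR = 0.655), per the authors' deposited tables. Replicate 1 of sgMETTL16-2 had 2 overlapping windows, at 0.46 (FDR = 0.565, not enriched) and 0.60 (FDR = 0.34), per the authors' deposited table. At the 5′ end, the window of highest ratio in replicate 1 of sgMETTL16-2 (chr1:110339473-110339712) was at 0.37, and its match in replicate 1 of sgMETTL16-1 at -0.24, in the authors' deposited tables. Over all enriched windows of RBM15 the log2 fold change ran from -0.52 to 0.60.

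CBLL1, the ubiquitin ligase, was enriched about 14 kilobases after its 5′ end on chromosome 7, with log2 fold changes of -0.09 and 0.26 for sgMETTL16-1 in the authors' deposited tables. For sgMETTL16-2 the authors' deposited tables gave 0.13 and 0.01 for the 2 windows of replicate 1 and 0.35 for that of replicate 2, where the lowest FDR was 0.574. The lowest value of any member, -2.75 (FDR = 0.656), was on a CBLL1 window of replicate 1 of sgMETTL16-2 that was not enriched, per the authors' deposited table.

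Among the windows of other genes nearest to the RBM15B long window over the 4 log2 fold changes were those of ZBTB7A and ARFGAP1, at Euclidean distances of 0.0512 and 0.0677. For the ZC3H13 window the nearest were those of EIF2B5, MCM3 and SART3, at 0.09, 0.10 and 0.12. This likeness is over 4 tables and 9308 windows matched in all of them, and is a description. MCM3 had 3 calls over the 4 tables, as many as the RBM15B and ZC3H13 windows, while ARFGAP1 had 2 and EIF2B5 had 1. ZBTB7A and SART3 had no call in any table, so nearly the same fold changes were called on some windows and not on others.

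Among 20 other m6A genes (readers, erasers and other methyltransferases), 18 to 20 were listed in each table. With sgMETTL16-1, 2 had a lower and 0 a higher window in replicate 1, against 1.39% and 0.368% of all genes, and 1 had a lower and 2 a higher window in replicate 2, against 0.76% and 2.51%. With sgMETTL16-2 the counts were 2 lower and 3 higher, against 4.17% and 3.66%, and 1 lower and 3 higher, against 0.682% and 2.52%. A gene with windows called in both directions counts on each side. The genes called in replicate 2 were therefore 2 with sgMETTL16-1 and 3 with sgMETTL16-2. By gene, the 8 writers had 1 lower and 0 higher, 0 and 2, 1 and 1, and 0 and 2 in the same order.

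PRRC2A, a reader, was called higher in the same 3 tables as RBM15B, with 0.35 and 0.32 in replicate 2 of sgMETTL16-1. For sgMETTL16-2 the authors' deposited tables list 0.415 and 0.455 in replicate 1 and 0.324 and 0.323 in replicate 2. Another gene of the list had lower calls in several tables. With sgMETTL16-1 these were at -0.22 in replicate 1 and -0.41 in replicate 2, per the authors' deposited tables. With sgMETTL16-2 the lower call was at -0.63, in replicate 2. In the replicate 2 tables the same gene also had a window called higher, at 0.25 and 0.17. ALKBH5, an m6A eraser, was higher with sgMETTL16-2, at 0.39 (FDR = 0.0427) and 0.49 (FDR = 0.00347) in the authors' deposited tables. YTHDC1, the nuclear reader, was lower in replicate 1 of sgMETTL16-1 at -0.715 (FDR = 0.00513), and METTL5, which methylates ribosomal RNA, was lower in replicate 1 of sgMETTL16-2 at -1.17 (FDR = 0.00417), in the authors' deposited tables.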

How the data were processed

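The submitters' processing notes name STAR and GRCh38. Not given in the sources used here are the peak caller and the gene annotation. Per the file headers, the authors deposited for each window its fold enrichment (a ratio) and, as log2, the fold change between knockout and sgNS. Each came with a p-value and an FDR, which the authors deposited as log10 values. The description of each knockout sample names its table, which ties table number to replicate number. FDRs were converted from log10 and used as deposited. The deposited p reached 0.514 to 0.537 at most where enrichment was strong, as a one-sided p does.

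The members, gene lists and tests were chosen with earlier results of these data known. Windows were named where called in at least 1 table, or where highest in fold enrichment for their gene in replicate 1 of sgMETTL16-2, and the other windows of VIRMA, METTL14, RBM15, RBM15B and CBLL1 that are given were chosen after their values were seen. Genes near in pattern are the 3 nearest windows for the members with the most calls. Some items of the gene lists are not reported here. Coordinates are printed from 1. Gene positions come from RefSeq (GRCh38.p14), which matched all 8 genes, and exons were not used. No genome sequence was used here. The length classes were added after seeing the data. The standard error is the absolute log2 fold change over the normal quantile of the deposited p, left out where p was 0.45 or more. The shift subtracts the median of a table's enriched windows, and p was then recomputed two-sided with Benjamini-Hochberg adjustment over the table. Matching, adjustment and standard error were tested on simulated data. Python 3.11.15 with numpy 2.4.6, pandas 2.3.3 and scipy 1.17.1 was used.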

Additional observations from a re-analysis of the deposited data

How the results depend on the processing

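No paired analysis was possible because the tables hold comparisons and no value per library. Counts of called member windows kept within 1.5 times under most settings, and those that did not are as follows. With an FDR of 0.01, the lower call in replicate 1 of sgMETTL16-2 was lost (0 of 1). Requiring 2-fold enrichment, the lower call in replicate 1 of sgMETTL16-1 (0), the higher call in replicate 1 of sgMETTL16-2 (0) and 1 of 2 higher calls in its replicate 2 (1 left) were lost. After the shift by the enriched median, 1 higher call was left in replicate 2 of each guide, and the window called higher in both tables of sgMETTL16-2 was lost (0). Overlaps of 0.25 and 0.8 changed no count of matched calls. Genes with a call numbered 1 to 2 for sgMETTL16-1 and 2 to 2 for sgMETTL16-2 when either replicate was left out. The same minimum of 2 left 5 and 7 enriched members for sgMETTL16-1, but 9 and 7 for sgMETTL16-2.

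The median log2 fold change of members, in the order of sgMETTL16-1 and then sgMETTL16-2, was -0.10, 0.18, 0.11 and 0.28 over enriched windows alone. It was -0.28, 0.36, -0.18 and 0.23 with 1 window per gene, and 0.0282, -0.10, -0.18 and -0.0723 after the shift, a constant per table. Its sign thus turned with the windows used or the shift in some tables. The cause was not tested. Depth is unknown.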
